A study of Mus musculus with 12 samples.

Results

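The 10 core genes of the circadian clock followed here were Arntl, Clock, Per1, Per2, Per3, Cry1, Cry2, Nr1d1, Nr1d2 and Dbp. They were taken by symbol from the deposited RPKM tables of mouse femur, and the transcripts of a symbol were added up. All 10 were found, among 18335 symbols present in both tables, and 12 transcripts carried them, with 2 each for Per1 and Cry2. RPKM is the number of reads scaled by the length of the transcript and by the reads of the library, so levels of different genes can be set side by side. None of the 10 genes passed the test between genotypes in the metaphysis or the diaphysis. In the metaphysis 11.4% of all 12641 genes tested passed, and at that share few of any 10 genes would pass. In the diaphysis no gene passed, the deleted gene Dlx3 included. Dbp and Per1 differed between libraries of the same group by more than most genes did, and so did Nr1d1, which in the diaphysis rested on 1 library.

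The mice were males aged 5 weeks and of mixed background. Dlx3Oc-cKO mice (cKO from here on) carry a conditional deletion of Dlx3, a homeobox transcription factor of bone-forming cells, and wild-type mice (WT) were their controls. RNA came from the metaphysis, the flared end of the shaft beside the growth plate, or from the diaphysis, the middle of the shaft. Each of the 4 groups (metaphysis cKO, metaphysis WT, diaphysis cKO and diaphysis WT) held 3 libraries. The labels name neither the Cre line nor the hour at which bones were taken, and leave unsaid whether each library came from its own mouse. The p-values therefore rest on the spread among the libraries, which may be technical in part. Whole bone pieces were used, and in such samples fewer cells of a type and less RNA per cell cannot be told apart.

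The clock is a loop of transcription and its repression that runs in nearly every cell type, osteoblasts, chondrocytes and marrow cells included. ARNTL (BMAL1) and CLOCK form a dimer that binds E-box sequences and switches on the Per and Cry genes, the Nr1d genes and Dbp. PER and CRY proteins then enter the nucleus and repress the dimer, NR1D1 and NR1D2 (REV-ERB alpha and beta) repress Arntl, and DBP acts through D-box sequences. In peripheral tissues of mice housed in light and dark, Dbp and Nr1d1 peak by day, nearly opposite to Arntl, with some of the widest swings of any transcript. Levels of these genes therefore depend on the hour of tissue collection. The glucocorticoid hormones, which surge with the daily rhythm and with stress, also switch on Per1 directly.

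Short sequences tie these genes to each other, and the promoters that hold them are shown because the results turn on how the genes differ from one another between libraries. RefSeq promoter windows (GRCm38.p6, 250 bases before to 50 after a start) were matched for 9 of the 10 members, and no window was matched for Per2. The E-box CACGTG, which reads the same on both strands, stood in the windows of Per1 and Cry1 and in 7.15% of all 32851 windows. The D-box TTATGNAA, searched on both strands, stood in those of Per1 and Per3 and in 3.38% of all windows. The core TAGGTCA of the element bound by ROR activators and NR1D repressors, also searched on both strands, stood in 1 member, Arntl, and in 2.61% of all windows. Members were counted if any of their windows held the motif, whereas the shares are of single windows. Per1, Arntl and Clock had more than 1 window. The motifs of Per1 and of Arntl lay in only 1 of theirs, and their places are given from the start that belongs to that window. The motifs did not overlap each other. Capitals mark the motifs in the 250 bases upstream of the start for Per1 (chr11:69098699-69098948, plus strand), Cry1 (chr10:85185055-85185304, minus strand) and Per3 (chr4:151044666-151044915, minus strand), and in the site of Arntl just after its start (chr7:113207531-113207557, plus strand).
Per1 promoter: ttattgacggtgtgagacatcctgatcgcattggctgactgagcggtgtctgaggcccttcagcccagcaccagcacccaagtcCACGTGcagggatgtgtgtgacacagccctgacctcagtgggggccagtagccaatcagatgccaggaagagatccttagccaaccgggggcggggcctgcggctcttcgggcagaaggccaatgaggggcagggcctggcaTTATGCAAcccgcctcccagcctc
Cry1 promoter: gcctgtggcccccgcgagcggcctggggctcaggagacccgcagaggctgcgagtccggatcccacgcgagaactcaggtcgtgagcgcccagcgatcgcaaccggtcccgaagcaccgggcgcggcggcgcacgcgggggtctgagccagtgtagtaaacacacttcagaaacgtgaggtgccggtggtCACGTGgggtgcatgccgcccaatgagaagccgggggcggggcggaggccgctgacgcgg
Per3 promoter: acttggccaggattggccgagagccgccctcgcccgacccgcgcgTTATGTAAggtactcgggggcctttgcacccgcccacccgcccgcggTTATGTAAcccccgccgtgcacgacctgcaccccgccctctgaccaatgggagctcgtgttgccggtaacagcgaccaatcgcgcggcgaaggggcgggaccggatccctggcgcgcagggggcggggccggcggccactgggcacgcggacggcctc
Arntl site: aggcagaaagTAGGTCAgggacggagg
In Per1 the E-box began 166 bases and the D-box 24 bases before the start, in Cry1 the E-box began 60 bases before it, and in Per3 the pair of D-boxes began 205 and 158 bases before it. The Arntl element began 31 bases after the start. A match is a stretch of letters, not a measured binding site.

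The libraries held 17.8 to 53.2 M reads (M, mega), as read from the spacing of the lowest values, with the fewest in diaphysis cKO replicate 1 and the most in diaphysis cKO replicate 3. One RPKM on a transcript of 2 kb thus stood for 35.6 to 106.4 reads. Dlx3 was lower in every cKO library than in every WT library of its region, with 1.98, 2.80 and 3.24 RPKM in metaphysis cKO against 8.37, 8.90 and 10.1 RPKM in metaphysis WT, and with 0.763, 1.55 and 1.17 RPKM in diaphysis cKO against 3.22, 7.64 and 13.1 RPKM in diaphysis WT. Markers of osteoblasts and osteocytes summed to 5114 to 29186 RPKM in every library, and chondrocyte markers to 643 to 2121 RPKM in the metaphysis and 43.2 to 207 RPKM in the diaphysis. Diaphysis WT replicate 1 stood apart from the other diaphysis libraries. It had the lowest sum of osteoblast and osteocyte markers (5114 RPKM), the highest of erythroid markers (82551 RPKM, against at most 41476 RPKM in any other library) and 32.6% of its RPKM in globin transcripts. Results of the diaphysis are therefore given with and without it.

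All 10 genes were above 1 RPKM in each of the 12 libraries. By the median over the 12 libraries the order was Nr1d1 (12.6 RPKM), Nr1d2 (9.82), Per1 (9.07), Dbp (7.23), Arntl (6.17), Cry1 (5.62), Cry2 (5.09), Per3 (4.25), Clock (3.19) and Per2 (3.11). The ranges of every pair of neighbours in this order overlapped. The tables of the regions were normalized separately, so levels across them are descriptions. The range was widest for Dbp, whose highest library held 5.75 times its lowest, and then for Per1 (5.05 times) and Nr1d1 (3.43 times). It was narrowest for Cry2 (1.58 times) and Arntl (1.62 times).

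**Figure D1:**
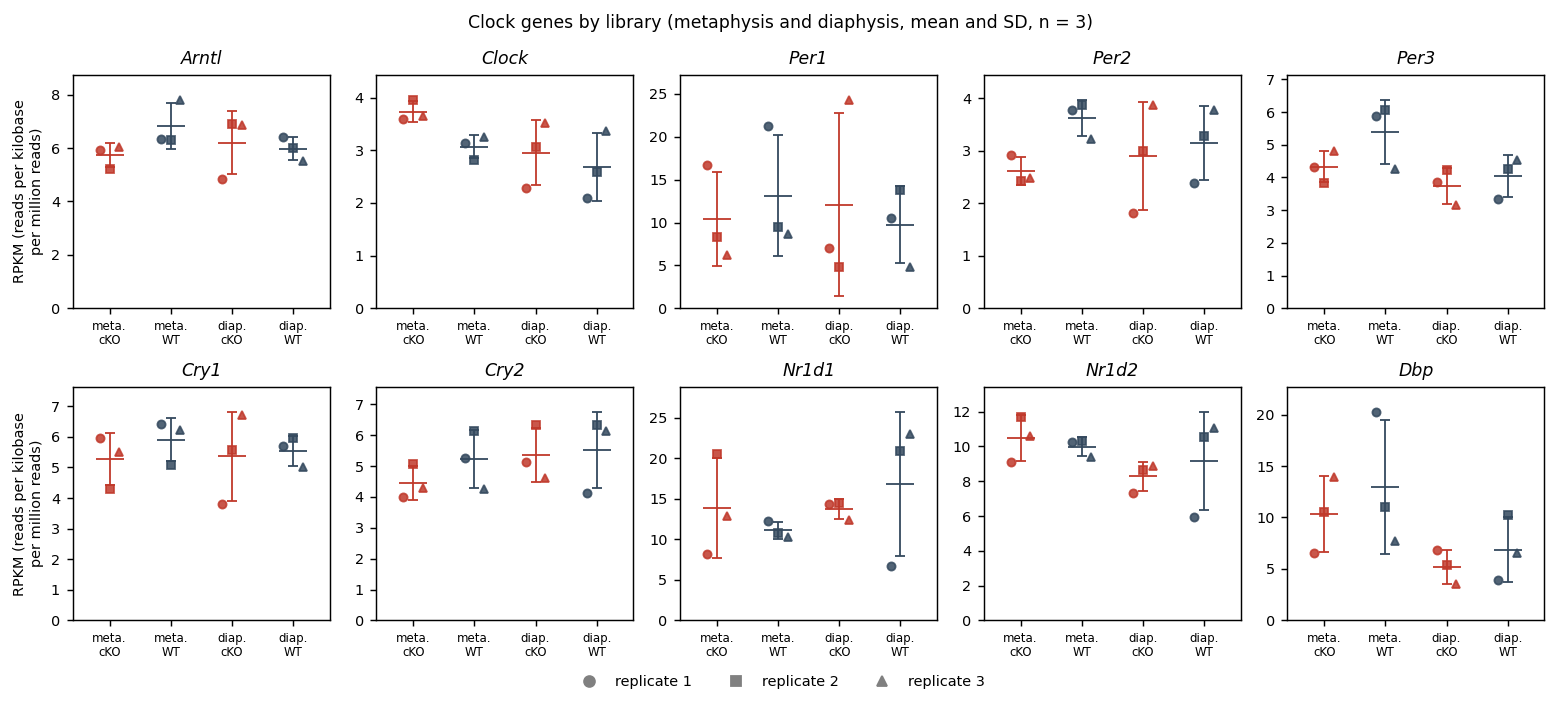
Level of each clock gene in RPKM (vertical axes, from 0) in the 12 libraries, by region (meta., metaphysis; diap., diaphysis) and genotype, with cKO in red and WT in dark blue. Points are single libraries, and the wide bar and whiskers are the mean and SD of 3 libraries. Dbp, Per1 and Nr1d1 scatter widely within groups, and the highest library of Dbp is metaphysis WT replicate 1 with 20.3 RPKM.

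The positive arm of the loop, Arntl and Clock, was compared first in the metaphysis. Arntl, the partner that confers rhythm on the dimer, had 5.93, 5.23 and 6.04 RPKM in cKO metaphyses, against 6.33, 6.30 and 7.81 RPKM in WT metaphyses. Clock, the other partner, had 3.59, 3.96 and 3.66 RPKM in cKO metaphyses, against 3.14, 2.82 and 3.25 RPKM in WT metaphyses. All cKO libraries lay below all WT libraries for Arntl and above them for Clock. On the log2(RPKM + 0.1) scale, which understates fold changes of low genes, the difference of cKO minus WT was -0.24 ± 0.12 (SE) for Arntl (limma, adjusted p = 0.231). For Clock it was 0.28 ± 0.12 (SE; limma, adjusted p = 0.163; unadjusted p = 0.0495). Neither passed the threshold of 0.05.

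Among the repressors of the negative arm, Per2 came closest to the threshold. It had 2.92, 2.43 and 2.48 RPKM in cKO metaphyses, against 3.78, 3.87 and 3.23 RPKM in WT metaphyses, so all cKO libraries were below all WT libraries. The log2 difference was -0.46 ± 0.14 (SE), with a 95% confidence interval from -0.78 to -0.14 (limma, unadjusted p = 0.0119, adjusted p = 0.0716). Over 13 alternative settings the adjusted p of Per2 ran from 0.0534 to 0.376, and none passed. Per3, a period gene that the loop in mice can do without, had 4.33, 3.84 and 4.80 RPKM in cKO metaphyses, against 5.87, 6.06 and 4.26 RPKM in WT metaphyses. The groups overlapped through WT replicate 3, and the log2 difference was -0.30 ± 0.16 (SE; limma, adjusted p = 0.259). The cryptochromes, the stronger repressors of the dimer, averaged 5.26 ± 0.85 RPKM in cKO and 5.91 ± 0.71 RPKM in WT metaphyses for Cry1, and 4.45 ± 0.54 RPKM in cKO and 5.22 ± 0.94 RPKM in WT metaphyses for Cry2 (SD, n = 3 each). Their log2 differences were -0.17 ± 0.15 and -0.22 ± 0.16 (SE), and both groups of libraries overlapped.

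Per1, Nr1d1, Nr1d2 and Dbp, the quickly responding outputs of the dimer, overlapped between genotypes in the metaphysis. Dbp, a transcription factor that passes the rhythm on to metabolic genes, had 6.55, 10.5 and 13.9 RPKM in cKO metaphyses, against 20.3, 11.0 and 7.67 RPKM in WT metaphyses. The 3 WT libraries alone covered nearly the whole range. Nr1d1, the repressor of Arntl, had 8.25, 20.5 and 12.9 RPKM in cKO metaphyses, against 12.2, 10.8 and 10.3 RPKM in WT metaphyses. Its WT libraries were close together, with cKO libraries on both sides of them. Per1 had 16.7, 8.32 and 6.25 RPKM in cKO metaphyses, against 21.3, 9.53 and 8.61 RPKM in WT metaphyses. In each genotype 1 library was well above the others. The log2 differences were -0.28 ± 0.39 (SE) for Dbp, 0.23 ± 0.29 for Nr1d1 and -0.33 ± 0.44 for Per1, and their 95% confidence intervals ran from -1.19 to 0.63, from -0.47 to 0.92 and from -1.36 to 0.70. The intervals of Dbp and Per1 leave room for a 1.5-fold difference in either direction, so one of that size was not detectable with 3 libraries a group. Nr1d2 was tighter, with 10.5 ± 1.31 RPKM in cKO and 9.99 ± 0.52 RPKM in WT metaphyses (SD, n = 3 each) and a log2 difference of 0.06 ± 0.11 (SE).

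In the metaphysis limma thus called 0 of 10 clock genes, where it called 11.4% of all 12641 genes tested, 7.51% higher and 3.89% lower in cKO. Before adjustment 2 of 10 (Per2 and Clock) were below 0.05, against 3862 of all genes, or 30.6%. Genotypes did not overlap for 3 of 10 (Per2, Arntl and Clock), against 37.1% of all genes. Of the 10, 1 had all cKO libraries above all WT libraries and 2 had them all below, against 18.7% and 18.4% of all genes. The median log2 difference of the 10 was -0.23 and that of all genes tested -0.036. Cell markers moved with genotype in the same libraries. Markers of osteoblasts and osteocytes summed to 23724 to 25397 RPKM in cKO and 15272 to 19683 RPKM in WT metaphyses (6 of 14 passed, all higher in cKO), and those of chondrocytes to 1319 to 2121 RPKM in cKO and 643 to 908 RPKM in WT metaphyses (7 of 10, all higher). Erythroid markers summed to 16884 to 22800 RPKM in cKO and 23013 to 25858 RPKM in WT metaphyses (4 of 10, all lower), and B lymphoid markers to 211 to 251 RPKM in cKO and 322 to 405 RPKM in WT metaphyses (6 of 9, all lower). No marker of these 4 lists was below the filter on low values there. Their part in the values of Per2, Arntl and Clock was not tested.

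In the diaphysis every clock gene overlapped between genotypes. The count of 0 of 10 stands against 3.03% of all genes whose genotypes did not overlap, 2.24% with all cKO libraries above and 0.789% with all below all WT libraries. Limma called 0 of 10, and 0.0% of all 12540 genes. Dlx3 itself did not pass there, with a log2 difference of -2.52 ± 0.50 (SE; limma, unadjusted p = 0.00118). The count of 0 of 10 therefore cannot show that the clock genes were unchanged. Before adjustment 0 of 10 and 86 of all genes were below 0.05. Dbp had 6.80, 5.34 and 3.52 RPKM in cKO diaphyses, against 3.90, 10.2 and 6.51 RPKM in WT diaphyses. Nr1d1 had 14.4, 14.5 and 12.4 RPKM in cKO diaphyses, against 6.72, 20.8 and 23.1 RPKM in WT diaphyses. For both, WT replicate 1 was the lowest WT library, and for Nr1d1 the cKO libraries lay together between it and the other WT libraries. Per1 had 7.04, 4.82 and 24.3 RPKM in cKO diaphyses, against 10.6, 13.7 and 4.86 RPKM in WT diaphyses. The value of cKO replicate 3 was the highest Per1 level of the series. The log2 differences were -0.33 ± 0.38 (SE) for Dbp, -0.11 ± 0.43 for Nr1d1 and 0.08 ± 0.62 for Per1, each with an adjusted p of 1.00 (limma).

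With all diaphysis libraries kept, the other members were steadier there than Dbp, Nr1d1 and Per1. Arntl averaged 6.20 ± 1.19 RPKM in cKO and 5.97 ± 0.44 RPKM in WT diaphyses (SD, n = 3 each, as for those that follow), and Clock 2.95 ± 0.62 RPKM in cKO and 2.68 ± 0.65 RPKM in WT. Per2 averaged 2.90 ± 1.03 RPKM in cKO and 3.15 ± 0.71 RPKM in WT, and Per3 3.75 ± 0.54 RPKM in cKO and 4.04 ± 0.63 RPKM in WT. Among these 4 genes the largest log2 difference in size was the -0.15 ± 0.32 (SE) of Per2. Cry1 averaged 5.36 ± 1.46 RPKM in cKO and 5.55 ± 0.49 RPKM in WT, and Cry2 5.36 ± 0.87 RPKM in cKO and 5.53 ± 1.23 RPKM in WT. Nr1d2 averaged 8.29 ± 0.82 RPKM in cKO and 9.18 ± 2.81 RPKM in WT. The 3 lowest Nr1d2 libraries were WT replicate 1 (5.95 RPKM) and cKO replicates 1 and 2 (7.35 and 8.63 RPKM).

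Without diaphysis WT replicate 1, the library that stood apart, the groups of Nr1d1, Nr1d2 and Per3 no longer overlapped, with all cKO libraries below both remaining WT libraries. That is 3 of 10 members, against 9.25% of all 12469 genes that lay this way round and 17.9% that did not overlap in either direction. For Nr1d1 the log2 difference became -0.67 ± 0.17 (SE; unadjusted p = 0.00303, limma adjusted p = 0.533), for Nr1d2 -0.38 ± 0.17 and for Per3 -0.23 ± 0.21. Dbp, whose groups still overlapped, came to -0.68 ± 0.30 (SE; unadjusted p = 0.0492, limma adjusted p = 1.00). Limma again called 0 of 10 members and 0.0% of all genes. Before adjustment 2 of 10 members (Nr1d1 and Dbp) and 570 of all genes were below 0.05.

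**Figure D2:**
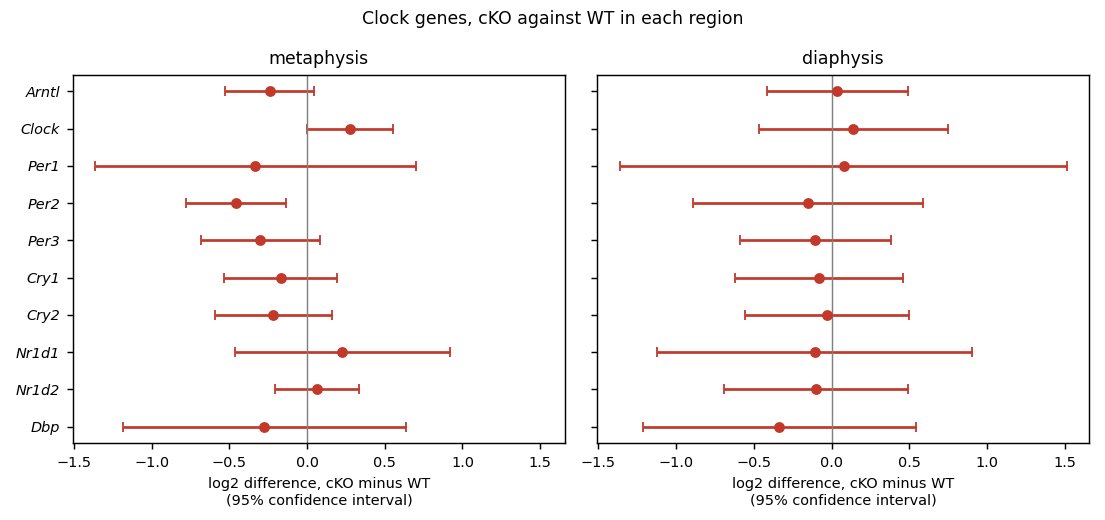
Difference between genotypes for each clock gene, as log2(RPKM + 0.1) in cKO minus WT (horizontal axis), in the metaphysis and the diaphysis. Points are limma estimates from 6 libraries a region, and whiskers are 95% confidence intervals. In the metaphysis only the intervals of Per2 (-0.78 to -0.14) and Clock leave out 0 before adjustment, and in the diaphysis none does.

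Whether the genotype difference itself differed between regions was tested in 1 fit of all 12 libraries. Limma called 0 of 10 members and 0.0% of 12321 genes, and before adjustment 0 of 10 members and 495 of all genes were below 0.05. The smallest adjusted p of a member was that of Arntl (0.908), with a difference of -0.28 ± 0.23 (SE) for the metaphysis minus the diaphysis. For Dbp it was 0.06 ± 0.60 and for Nr1d1 0.33 ± 0.59 (SE). Without diaphysis WT replicate 1 the count over all genes became 247 and that of the members stayed at 0, with the smallest adjusted p of 0.169 for Nr1d1.

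Members also differed in their spread between replicates. The spread was taken as the residual SD on the log2 scale and ranked among all genes tested in a region. In the metaphysis Per1 (0.72) stood at percentile 97.0, Dbp (0.63) at 95.9 and Nr1d1 (0.47) at 93.0. Clock stood at the other end there, with an SD of 0.09 at percentile 15.7, below Nr1d2 (39.8), Per2 (40.2) and Arntl (43.4). In the diaphysis Per1 (1.01) stood at percentile 98.1, Nr1d1 (0.70) at 91.5 and Dbp (0.59) at 87.4. Clock (0.32) stood at percentile 63.0 there, above Per3 (38.5) and Arntl (38.0). The median SD of the 10 members was 0.21 in the metaphysis, where that of all genes was 0.16, and 0.34 in the diaphysis, where that of all genes was 0.26. Without diaphysis WT replicate 1, Per1 stood at percentile 99.5, Dbp at 91.5, Per2 at 90.3 and Clock at 72.0, while Nr1d1 came to 15.0 and Nr1d2 to 15.9. The wide spread of Nr1d1 in the diaphysis thus rested on that 1 library, and the spreads of Per1 and Dbp did not.

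**Figure D3:**
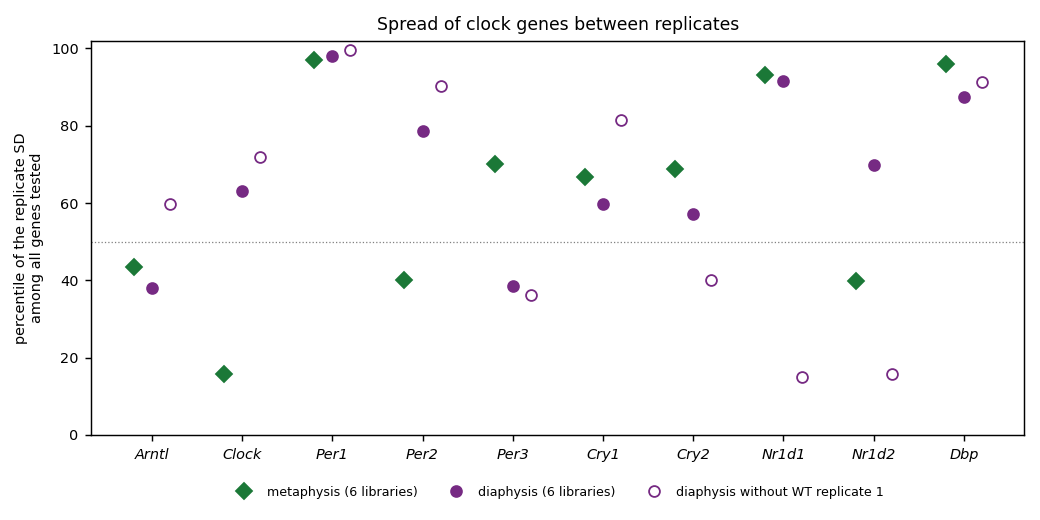
Percentile of each clock gene's replicate SD, on the log2 scale, among all genes tested in the region (vertical axis, 0 to 100, dotted line at 50). Diamonds are the metaphysis, filled circles the diaphysis and open circles the diaphysis without WT replicate 1. Per1 and Dbp are at 87.4 or above in all 3, and Nr1d1 drops to 15.0 without that library.

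A ratio of 2 genes within a library does not depend on how that library was scaled. The ratio of a day-peaking gene to Arntl changes with clock phase, but it can also change with the cell makeup of the bone piece. The log2 ratio of Dbp to Arntl was 0.14, 1.01 and 1.20 in cKO metaphyses, against 1.68, 0.80 and -0.03 in WT metaphyses. In the diaphysis it was 0.49, -0.37 and -0.96 in cKO, against -0.72, 0.77 and 0.24 in WT. Genotypes overlapped in both regions, and over all 12 libraries the ratio spanned 2.64 log2 units, or 6.23-fold. Its group means were 0.78 ± 0.56 in cKO and 0.82 ± 0.85 in WT metaphyses, and -0.28 ± 0.73 in cKO and 0.10 ± 0.75 in WT diaphyses (SD, n = 3 each). With all 12 libraries kept, the difference between genotype means was smaller than the SD within each group in both regions. Without diaphysis WT replicate 1 the Dbp ratios of the diaphysis still overlapped. No hour of collection is given, so its part in these ratios was not tested, and neither was that of cell makeup.

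The log2 ratio of Nr1d1 to Arntl was 0.48, 1.97 and 1.10 in cKO metaphyses, against 0.95, 0.78 and 0.40 in WT metaphyses. In the diaphysis it was 1.57, 1.07 and 0.85 in cKO, against 0.07, 1.80 and 2.06 in WT. With all 12 libraries kept, it overlapped between genotypes in both regions and spanned 3.98-fold. The lowest ratio was in diaphysis WT replicate 1 and the highest in diaphysis WT replicate 3. The ratio did not rank the libraries as that of Dbp did. Metaphysis WT replicate 1 had the highest Dbp ratio and a Nr1d1 ratio in the middle of the range. The ratios of Per1, Per2, Per3, Nr1d2 and Clock to Arntl spanned 5.09, 1.84, 2.09, 2.41 and 2.33-fold, and that of Cry2 to Cry1 spanned 2.0-fold. Among all these, with all 12 libraries kept, only the ratio of Clock to Arntl in the metaphysis kept genotypes apart. It was -0.73, -0.40 and -0.72 log2 units in cKO, against -1.01, -1.16 and -1.27 in WT. That separation had to follow from the levels given above, where all cKO libraries lay above all WT libraries for Clock and below them for Arntl. It is therefore no separate result. In the diaphysis the ratio of Clock to Arntl was -1.08, -1.18 and -0.96 in cKO, against -1.62, -1.21 and -0.71 in WT, where genotypes overlapped. Without diaphysis WT replicate 1, the diaphysis ratios of Nr1d1 and of Nr1d2 to Arntl no longer overlapped between genotypes, with cKO lower. That of Nr1d2 was 0.61, 0.32 and 0.37 in cKO, against 0.82 and 1.00 in the remaining WT libraries. The other ratios still overlapped there.

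**Figure D4:**
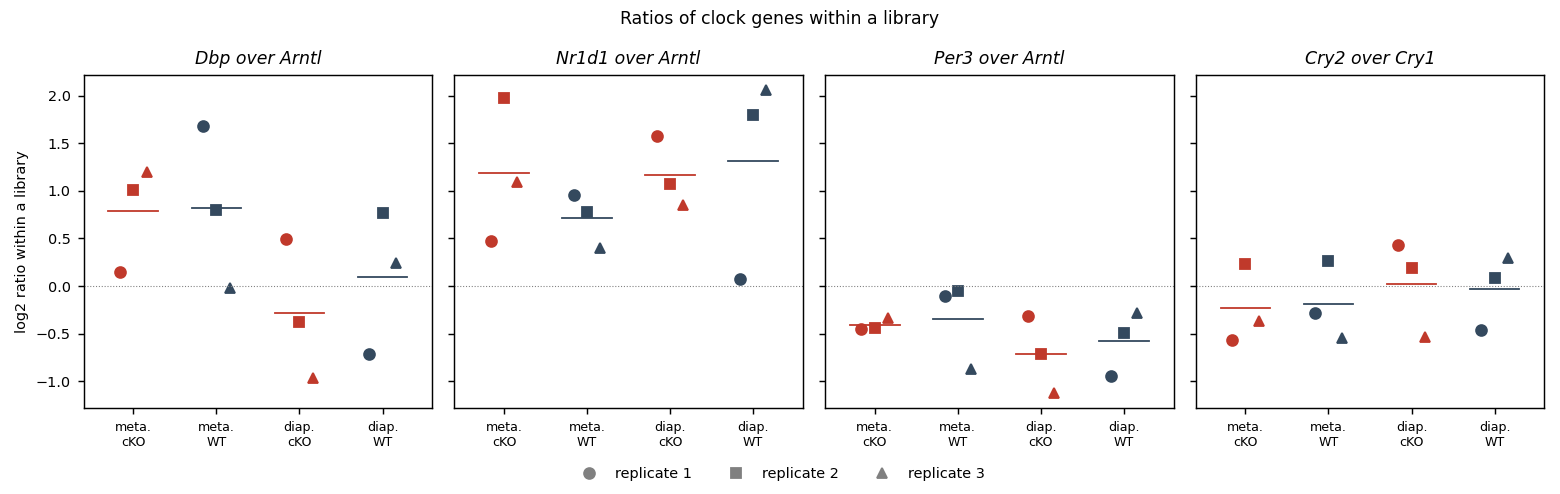
Log2 ratio of 2 clock genes within each library (vertical axis), by region and genotype, with cKO in red and WT in dark blue. Symbols are replicates 1 to 3, and horizontal bars are group means. Dbp over Arntl runs from -0.96 to 1.68. With all 12 libraries kept, cKO and WT overlap in each of the 8 region and ratio pairs drawn.

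Members were also compared by how they moved together over the 12 libraries, on log2 values less the mean of the library's own group. The correlations are descriptions over 12 points that share library scaling, cell makeup and depth. With Dbp, Pearson's r was 0.68 for Per3, 0.64 for Nr1d1, 0.61 for Cry2 and 0.51 for Nr1d2, whereas for Arntl it was -0.52. Counted from the highest r, these ranked 154, 224, 306, 828 and 10912 of 12321 genes, so many genes had a lower r than Arntl. Spearman's rho was 0.48 for Per3, 0.73 for Nr1d1, 0.56 for Cry2 and -0.47 for Arntl. Without the 2 libraries farthest from the median of Dbp, r was 0.59 for Per3, 0.58 for Nr1d1, 0.57 for Cry2 and -0.47 for Arntl. For Cry1, Per1, Per2 and Clock it was -0.28, -0.13, -0.10 and -0.03 over all 12 libraries, and -0.42, -0.31, -0.39 and -0.36 without those 2. With Arntl, r was 0.82 for Cry1 (Spearman's rho 0.59), which ranked 669 of 12321 genes. It was -0.41 for Nr1d1, -0.40 for Per3, -0.39 for Cry2 and -0.15 for Nr1d2, and the last was 0.14 without diaphysis WT replicate 1. After the libraries were scaled to a common median, r with Arntl was -0.78 for Cry2, -0.68 for Nr1d1, -0.67 for Dbp, -0.66 for Per3 and -0.62 for Nr1d2, and 0.69 for Cry1. Libraries with more Dbp thus tended to hold more Per3, Cry2 and Nr1d1 and less Arntl relative to their group, the last as for many other genes. Without diaphysis WT replicate 1, r with Dbp was 0.57 for Per3, 0.47 for Nr1d1, 0.43 for Cry2, 0.16 for Nr1d2, -0.48 for Arntl, -0.47 for Clock, -0.44 for Per2, -0.28 for Cry1 and -0.08 for Per1.

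The genes most like Dbp over the 12 libraries, among 12321 genes, were Scn2b (r = 0.92), Pcbp3 (0.91), Tmem120a (0.89), Mier2 (0.88) and Tie1 (0.85). Scn2b encodes a sodium channel subunit, Pcbp3 an RNA-binding protein and Tie1 a receptor of endothelial cells. Those most like Arntl were Bcl11a (0.98), Ddx27 (0.98), Aaas (0.98), Ifnar2 (0.98) and Hnrnpc (0.97). Bcl11a encodes a transcription factor of lymphoid and erythroid cells and Hnrnpc an RNA-binding protein. Of clock output genes outside the 10, Bhlhe41, a repressor at E-boxes, had r = 0.74 with Dbp and Tef, which like Dbp encodes a D-box binding factor, had 0.72. Usp2 had 0.48, and Wee1 went the other way with -0.41. With Arntl, Tef had r = -0.65, and -0.87 after scaling to a common median. Usp2 had -0.61 with Arntl, Bhlhe41 -0.33 and Wee1 0.67, without that scaling.

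In the diaphysis the skeletal muscle markers summed to 6913, 3731 and 1912 RPKM in cKO replicates 1, 2 and 3, in the same order as Dbp, and to 3927, 4511 and 1947 RPKM in WT replicates 1, 2 and 3, where the order differed. In cKO metaphyses they summed to 3347, 10802 and 2729 RPKM, while the highest Dbp was in replicate 3. In WT metaphyses they summed to 6129, 9059 and 6308 RPKM, while the highest Dbp was in replicate 1. The part of muscle RNA in Dbp levels was not tested.

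Per1 did not follow Dbp, and its own pattern was looked up after its values were seen. With gene models without a proper symbol left out, which stood at ranks 2 and 3, the genes most like it were Trem1 (r = 0.97), Cebpa (0.94), Csnk1d (0.94), Cebpb (0.93) and Cdkn2aipnl (0.93). After scaling to a common median, Trem1 (0.96), Cebpa (0.93) and Cebpb (0.93) ranked 2, 3 and 5, whereas Cdkn2aipnl had r = 0.79 at rank 81 and Csnk1d r = 0.70 at rank 267. Trem1 encodes a receptor of myeloid cells, Cebpa and Cebpb transcription factors of myeloid and fat cells, and Csnk1d a kinase that phosphorylates PER proteins. Tsc22d3 (GILZ), a gene switched on by glucocorticoids, had r = 0.89 (Spearman's rho 0.83, and r = 0.78 without the 2 libraries farthest from the median of Per1). Sgk1, another such gene, had r = 0.78, whereas Fkbp5 had 0.56 and Zbtb16 0.04. Tsc22d3 had 83.8, 65.3 and 30.6 RPKM in cKO metaphyses, against 126, 72.7 and 50.2 RPKM in WT metaphyses. In the diaphysis it had 34.5, 36.8 and 131 RPKM in cKO, against 60.4, 115 and 63.1 RPKM in WT. Its 3 highest libraries were diaphysis cKO replicate 3, metaphysis WT replicate 1 and diaphysis WT replicate 2, which were also among the 4 highest for Per1. Tsc22d3 did not pass between genotypes in either region (limma, adjusted p = 0.489 and 1.00). A list of 14 glucocorticoid-responsive genes, Tsc22d3 among them, summed highest in metaphysis cKO replicate 2 (717 RPKM), where Per1 was only 8.32 RPKM. Next came diaphysis cKO replicate 3 (619 RPKM), diaphysis WT replicate 2 (615), metaphysis WT replicate 1 (599) and metaphysis cKO replicate 1 (596). Those were the 4 highest libraries for Per1. Neutrophil markers summed to 7208 to 10269 RPKM in cKO and 7758 to 13143 RPKM in WT metaphyses, and to 8444 to 11127 RPKM in cKO and 8274 to 13495 RPKM in WT diaphyses, with the highest sums in diaphysis WT replicate 1 (13495 RPKM), where Per1 was 10.6 RPKM, and metaphysis WT replicate 1 (13143 RPKM), where Per1 was 21.3 RPKM. The part of hormone level or of myeloid cells in Per1 was not tested.

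**Figure D5:**
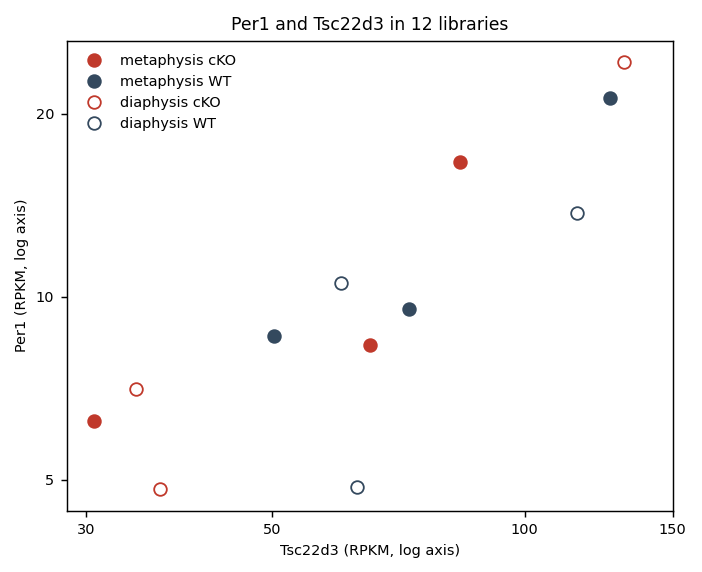
Per1 against Tsc22d3, both in RPKM on log axes, in the 12 libraries, with cKO in red, WT in dark blue, filled circles for the metaphysis and open circles for the diaphysis. The libraries highest in both are diaphysis cKO replicate 3 (24.3 and 131 RPKM) and metaphysis WT replicate 1 (21.3 and 126 RPKM), 1 of each genotype.

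Of 30 other clock and clock output genes, 27 were in the tables and 21 passed the filter on low values in each region. In the metaphysis 1 rose and 2 fell in cKO, and 18 did not pass, with a median log2 difference of -0.14. That is 3 of 21 called, against 11.4% of all genes tested, so the share was near that of all genes. Bhlhe40, an E-box repressor that also answers to hypoxia and many signals, averaged 24.0 ± 5.35 RPKM in cKO and 15.4 ± 0.20 RPKM in WT metaphyses (SD, n = 3 each) and rose by 0.61 ± 0.15 (SE, log2; limma, adjusted p = 0.0455). Btrc, part of the ubiquitin ligase that marks PER proteins for breakdown, averaged 4.78 ± 0.80 RPKM in cKO and 7.28 ± 0.54 RPKM in WT, and fell by 0.61 ± 0.14 (SE; limma, adjusted p = 0.0371). Tipin, the partner of Timeless at replication forks, averaged 28.8 ± 4.53 RPKM in cKO and 43.3 ± 5.39 RPKM in WT, and fell by 0.59 ± 0.15 (SE; limma, adjusted p = 0.0430). Each of these 3 calls was lost in 8 of 13 alternatives, where adjusted p ran up to 0.250 for Bhlhe40, 0.664 for Btrc and 0.232 for Tipin. The call of Bhlhe40 was lost without cKO replicate 3 or without any 1 of the WT libraries, that of Btrc without cKO replicate 2 or 3 or any 1 of the WT libraries, and that of Tipin without any 1 of the 6 libraries. With only the highest transcript of a symbol the difference of Btrc was -0.16. Timeless itself averaged 9.95 ± 1.27 RPKM in cKO and 13.3 ± 0.76 RPKM in WT (SD, n = 3 each; limma, adjusted p = 0.0583).

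In the diaphysis limma called 0 of the 21 genes tested there, with 0 below 0.05 before adjustment. The set was not the same as in the metaphysis: Hlf passed the filter only in the diaphysis and Gm129 only in the metaphysis. The smallest p-values were those of Hlf (-0.36 ± 0.27 SE), Csnk1d (0.13 ± 0.13) and Prkaa1 (-0.13 ± 0.18), all with an adjusted p of 1.00 (limma). Hlf, the third of the D-box binding factors, averaged 1.06 ± 0.15 RPKM in cKO and 1.38 ± 0.15 RPKM in WT diaphyses (SD, n = 3 each), near the filter of 1 RPKM. Its genotypes did not overlap, as for 3.03% of all genes there, 0.789% with all cKO below all WT libraries. In the metaphysis the genotypes of Hlf overlapped. Csnk1d had one of the smallest spreads of any gene in the diaphysis, at percentile 2.03. Npas2, which can stand in for Clock, was below the filter in both regions, at 0.71 ± 0.24 RPKM in cKO and 0.39 ± 0.19 RPKM in WT metaphyses.

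Lists of genes that answer to body temperature, glucocorticoids and handling were read beside the clock. In the metaphysis 0 of 10 temperature-linked genes passed (limma), against 11.4% of all genes, and 4 of 10 were below 0.05 before adjustment, against 30.6% of all genes. Their median log2 difference was -0.35. Of 14 glucocorticoid-responsive genes 1 rose, against 7.51% of all genes higher in cKO, so the share was near that of all genes. It was Cdkn1a, a cell cycle inhibitor, with 74.7 ± 9.72 RPKM in cKO and 39.8 ± 6.14 RPKM in WT (SD, n = 3 each; 0.91 ± 0.15 SE, limma adjusted p = 0.0161). Of 13 immediate early genes, which switch on within minutes of a stimulus, 3 rose (Egr1, Egr2 and Egr3) and 1 fell (Btg2), against 7.51% of all genes higher and 3.89% lower in cKO. Egr1 had 20.4, 34.3 and 24.4 RPKM in cKO metaphyses, against 7.23, 6.39 and 9.20 RPKM in WT metaphyses, a difference of 1.76 ± 0.21 (SE; limma, adjusted p = 0.0101). In the diaphysis limma called 0 genes of these 3 lists, with 0 below 0.05 before adjustment.

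Some members share ground with other genes. The libraries did not mark strand, and on mm9 Nr1d1 (chromosome 11, 98629246 to 98636647, minus strand) overlaps the end of Thra, a thyroid hormone receptor gene on the other strand, by 1075 bases. Dbp (chromosome 7, 52960458 to 52965525, plus strand) overlaps Sphk2 by 689 bases, and Cry2 lies over the noncoding gene D930015M05Rik. Reads from the shared stretches cannot be told apart. Nr1d1 lies 3.64 Mb from Dlx3 (chromosome 11, 94981403 to 94986610) and Per1 26.1 Mb from it.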

How the data were processed

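Per the labels, RNA of the metaphysis or the diaphysis was sequenced from TruSeq RNA libraries, which do not mark strand. The authors deposited 1 table of RPKM per region, a value per RefSeq transcript and library, per the file headers. The build mm9 and the tools Bowtie (0.12.7.0), Partek (6.6), TopHat (1.3.2) and CASAVA (1.8.2) are listed, without roles, per the submitters' processing notes. How reads shared by transcripts were split is not given in the sources used here, so the 2 transcripts of Per1 and of Cry2 were only added up. The members and all gene lists were chosen with earlier results of these data known.

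After summing by symbol, a gene entered a region's test if 3 or more of the 6 libraries reached 1 RPKM. Tests ran on log2(RPKM + 0.1) with limma 3.58.1 (R 4.3.3; mean-variance trend, 2-sided, Benjamini-Hochberg over all genes, threshold 0.05), each region in its own table. The region contrast used 1 fit of 12 libraries. The code was tested on simulated data. Depth came from the spacing of low values, of which 73.5% to 79.4% were within 0.1 of a whole read (20% by chance), too few to rebuild counts. Replicate numbers only name a library. Named genes were the members, listed clock genes past the threshold or else the 3 with the smallest p, and the 5 genes most like Dbp and Arntl, gene models left out. The likeness for Per1 and the values without diaphysis WT replicate 1 for spread and correlation were added after seeing the data. Positions are from GENCODE vM1. Python 3.11.15 with numpy 2.4.6, pandas 2.3.3 and scipy 1.17.1 made the summaries. Figures were drawn with matplotlib 3.10.9.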

Additional observations from a re-analysis of the deposited data

How the results depend on the processing

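The count of called members was 0 of 10 in both regions and in the region contrast under every alternative run: other pseudocounts, no filter on low values, scaling to a common median, globin transcripts removed, the highest transcript of each symbol, 1 fit of all 12 libraries, leaving out each library in turn and, in the diaphysis, the 4 libraries with neighbouring title numbers, where the smallest adjusted p was 0.425 (Nr1d1). The count over all genes was less stable. In the metaphysis, where it was 1441, it came to 7 in the fit of all 12 libraries, to 789 without a filter, and to between 105 and 1418 with 1 library left out. In the region contrast it was 0, and came to 2 without a filter and to 247 without diaphysis WT replicate 1. The cause was not tested.

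Some log2 differences, none of them past the threshold, changed sign: Nr1d2 in the metaphysis to -0.018 with globin removed, and in the 4 neighbouring diaphysis libraries Cry1 to 0.16 and Prkaa1 to 0.078. With 1 library left out, the differences ran in the metaphysis from -0.73 to 0.075 for Per1, -0.10 to 0.55 for Nr1d1, -0.022 to 0.16 for Nr1d2 and -0.59 to 0.10 for Dbp. In the diaphysis they ran from -0.60 to 0.55 for Per1, -0.39 to 0.14 for Per2, -0.23 to 0.012 for Per3, -0.26 to 0.14 for Cry1, -0.23 to 0.077 for Cry2, -0.050 to 0.21 for Arntl, -0.019 to 0.31 for Clock, -0.67 to 0.21 for Nr1d1, -0.38 to 0.058 for Nr1d2 and -0.25 to 0.018 for Prkaa1. In the region contrast they ran from -0.88 to 0.27 for Per1, -0.31 to 0.090 for Cry1, -0.32 to 0.011 for Cry2, -0.038 to 0.30 for Clock and -0.28 to 0.44 for Dbp. Where 1 library left a group with 2, the spread was pooled over the groups.

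No paired analysis was possible because the labels give no replicate numbers and no pairs. All members were above 1 RPKM in every library.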
